A study of Mus musculus with 6 samples.

Results

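Messenger RNA of 9 genes that store, take up, export and sense iron was compared in HL-1 cells, a mouse cardiomyocyte line derived from an atrial tumour. The genes were taken by symbol from the 38087 gene IDs of the count tables, using GENCODE M21 names, and all 9 were found once. One group of 3 libraries, labelled as a knockdown, came from cells given an siRNA (100 nM) that targets Circ-INSR, which is a circular product of the insulin receptor gene. The other group of 3 libraries came from cells given a scrambled control siRNA. The labels name no further genetic change in either group, and they do not say whether the libraries of a group are from separate cultures, so the spread behind each p-value may be technical. The comparison asks how these mRNAs differ when Circ-INSR is targeted. Libraries were made from poly(A)-selected RNA, which favours linear mRNA, so Circ-INSR itself was not measured.

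Cells take up iron bound to transferrin through the transferrin receptor (Tfrc), reduce it in the endosome (Steap3) and pass it to the cytosol through the divalent metal transporter DMT1 (Slc11a2). Excess iron is stored in ferritin, a shell of heavy (Fth1) and light (Ftl1) chains that the cargo receptor Ncoa4 delivers to lysosomes for release, and it leaves the cell through ferroportin (Slc40a1). The iron regulatory proteins IRP1 (Aco1, a cytosolic aconitase when it holds an iron-sulfur cluster) and IRP2 (Ireb2) bind iron-responsive elements (IREs), hairpins in the untranslated regions (UTRs) of these mRNAs. Binding in a 5' UTR blocks translation, and binding in the 3' UTR of Tfrc protects the mRNA from decay. Heart muscle uses much iron for its mitochondria and is known to be harmed both by iron shortage and by iron overload.

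The hairpins are shown because they are what the products of Aco1 and Ireb2 bind in the other members' mRNAs. They were found in the protein-coding GENCODE M21 transcripts (mm10) as an unpaired C, a 5-base stem and the loop CAGTGN, searched on the transcript strand, with A-T, G-C or G-T pairs. The loop is in capitals, each sequence is given 5′ to 3′ as DNA with 6 flanking bases on either side, and the position follows the name.
Fth1, 5' UTR, chr19:9982732-9982760, plus strand: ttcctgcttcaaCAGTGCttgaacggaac
Ftl1, 5' UTR, chr7:45459779-45459807, minus strand: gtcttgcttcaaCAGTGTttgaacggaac
Slc40a1, 5' UTR, chr1:45925465-45925493, minus strand: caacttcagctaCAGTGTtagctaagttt
Tfrc site A, 3' UTR, chr16:32631219-32631247, plus strand: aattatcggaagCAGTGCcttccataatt
Tfrc site B, 3' UTR, chr16:32631598-32631626, plus strand: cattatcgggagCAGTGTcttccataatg
Tfrc site C, 3' UTR, chr16:32631663-32631691, plus strand: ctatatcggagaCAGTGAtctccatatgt
Tfrc site D, 3' UTR, chr16:32631710-32631738, plus strand: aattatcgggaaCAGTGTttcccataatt
Slc11a2, 3' UTR, chr15:100395152-100395181, minus strand: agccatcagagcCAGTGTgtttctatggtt

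The Slc11a2 hairpin has 1 extra base in the 3′ strand of its stem and was found only when such a bulge was allowed. Of 21877 protein-coding genes, 0.142% held the hairpin without a bulge in a 5' UTR and 0.59% in a 3' UTR, and 1.07% held the bulged form in a 3' UTR. The hairpin lay in 4 of 5 annotated coding transcripts of Fth1, 1 of 2 of Ftl1, 1 of 4 of Slc40a1, 1 of 3 of Tfrc and 1 of 6 of Slc11a2. For each of these genes, counts per gene do not tell the mRNAs with the element from those without it. Neither form was found in Ncoa4, Steap3, Aco1 or Ireb2. A match describes these letters and is not a measurement of binding. Elements with another loop or stem would be missed by this search.

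Total counts per library ran from 68468620 to 77037474 after Circ-INSR siRNA and from 60024750 to 62523602 after control siRNA. Levels below are in CPM, each count as a part of its library's TMM-scaled total, where TMM is edgeR's correction for library make-up. Each member had at least 1150 counts in every library, and intervals of counting error are small at that depth. Control replicate 3 stood apart, with a median log2 deviation of -0.13 for the longest 10% of genes (exons of at least 9219 bases) and between 0.00 and 0.05 in the other 5 libraries, and no member's call changed without it. The 8 cardiomyocyte markers summed to 7169 to 7287 CPM after Circ-INSR siRNA and 6514 to 6824 CPM after control siRNA. They went both ways: Myh6, Actc1 and Myl4 were called higher, Tnnt2, Myl7 and Gja1 lower, and Nppa and Ryr2 were not called. Tnnt2, the cardiac troponin T gene, had 1216 ± 40.7 CPM after Circ-INSR siRNA and 2021 ± 45.3 CPM after control siRNA, and Myh6, the alpha myosin heavy chain gene, had 2205 ± 41.3 CPM after Circ-INSR siRNA and 1564 ± 131 CPM after control siRNA. The 6 erythroid markers, which would mark another iron-handling cell type, summed to 0.793 to 1.06 CPM after Circ-INSR siRNA and 2.11 to 2.30 CPM after control siRNA. Both adult beta-globin genes and Alas2 were at 0 counts, and 2 of the 6 markers were called lower. The 4 macrophage and leukocyte markers, of cells that also handle iron, summed to 3.64 to 4.15 CPM after Circ-INSR siRNA and 6.40 to 7.37 CPM after control siRNA without overlap, mostly from Cd68, with 2 of the 4 called lower and Adgre1 at 0 counts. The 4 endothelial markers summed to at most 1.61 CPM after Circ-INSR siRNA and at most 1.26 CPM after control siRNA, and the groups overlapped. The 5 fibroblast markers summed to 113 to 127 CPM after Circ-INSR siRNA and 159 to 178 CPM after control siRNA, nearly all from Col1a1. They went both ways, with 1 of the 5 called higher and 1 called lower. The part of these marker differences in the results below was not tested. The host gene Insr had 89.2 ± 0.0183 CPM after Circ-INSR siRNA and 120.1 ± 14.2 CPM after control siRNA, which does not measure the circular RNA.

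Of the 9 members, all of which passed the filter on low counts, 6 rose, 2 fell and 1 did not pass the test. The largest change was a rise of 70.1% for Aco1, which encodes IRP1, followed by rises of 29.3% for Ireb2, which encodes IRP2, and 28.5% for Slc40a1, which encodes ferroportin. Ncoa4, Tfrc and Ftl1 rose by smaller amounts, Fth1 and Slc11a2 fell, and Steap3 was not called. Calls were made by edgeR's quasi-likelihood test at a Benjamini-Hochberg adjusted p under 0.05 over 16666 genes, where 28.5% of all genes were called higher and 28.5% lower, 57.0% in all. The groups did not overlap for any of the 9 members, against 63.3% of all genes tested, with 7 members higher in every Circ-INSR siRNA library (32.0% of all genes) and 2 lower (31.3%). The median absolute log2 fold change was 0.18 over the members and 0.29 over all genes, and 0 members reached an absolute log2 fold change of 1. These RNAs came from whole cultures, so fewer cells of a type and less RNA per cell cannot be told apart.

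**Figure D1:**
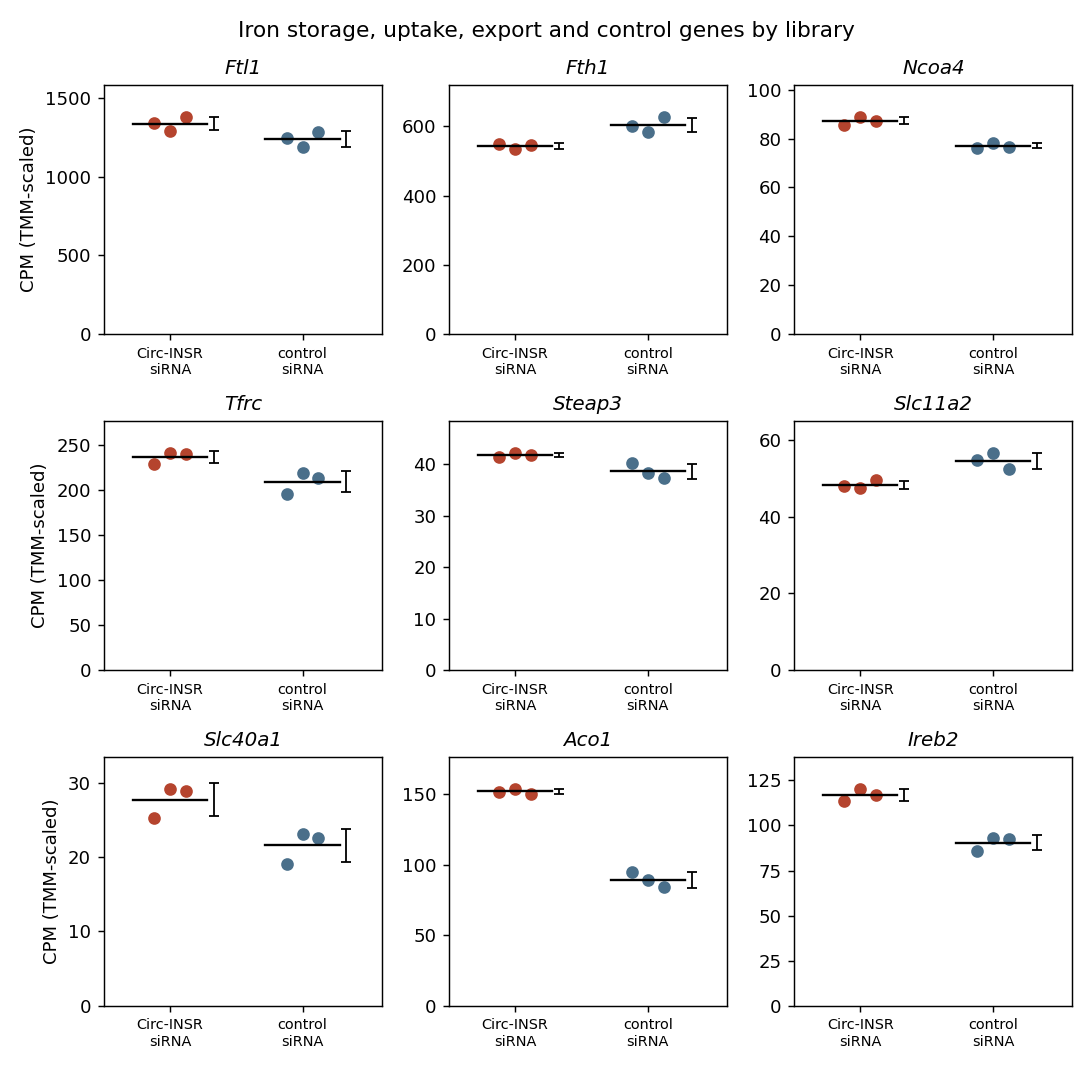
TMM-scaled CPM of the 9 genes in each library, 1 panel per gene, with Circ-INSR siRNA left and control siRNA right. Points are libraries, horizontal lines are means and bars are 1 SD (n = 3 each), and in every panel the points of both groups are separate, most widely for Aco1, with means of 152.0 CPM after Circ-INSR siRNA and 89.3 CPM after control siRNA.

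Ferritin light chain, Ftl1 (ENSMUSG00000050708, mm10 chromosome 7, 45457944 to 45459884, minus strand), builds the storage core without oxidising iron itself. It had 1340.4, 1292 and 1376 CPM in the Circ-INSR siRNA libraries, against 1248, 1186 and 1285 CPM in the control libraries. The lowest Circ-INSR siRNA library lay just above the highest control library. The log2 fold change was 0.11 (SE 0.04; edgeR adjusted p = 0.0415), a rise of 7.81%. This call did not hold without control replicate 1, control replicate 2, Circ-INSR siRNA replicate 1 or Circ-INSR siRNA replicate 3, with edgeR adjusted p of 0.0684, 0.186, 0.112 and 0.161. It also did not hold with total-count scaling (0.06, adjusted p = 0.260), upper quartile scaling (0.09, adjusted p = 0.131) or a filter of 1 CPM (0.10, adjusted p = 0.0663), and it was 0.26 with a trend on length and GC content removed.

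Mouse chromosomes carry near-identical retroposed copies of Ftl1, and reads can be split between them. Ftl1-ps1 had 151 ± 7.95 CPM after Circ-INSR siRNA and 123 ± 4.97 CPM after control siRNA, and Ftl2-ps had 51.1 ± 1.75 CPM after Circ-INSR siRNA and 42.7 ± 1.98 CPM after control siRNA (SD, n = 3 each). Both copies were called higher, with log2 fold changes of 0.30 and 0.26 (SE 0.05 each; edgeR adjusted p = 0.000394 and 0.000902). Together they held 12.3% to 13.7% of the sum with Ftl1 after Circ-INSR siRNA and 11.3% to 12.3% after control siRNA. With the 3 genes summed into 1, an alternative chosen after seeing the data, the light chain rose by 0.13 (SE 0.04; edgeR adjusted p = 0.0139). How the authors' counting treated reads with several matches is not given in the sources used here, so the split between Ftl1 and its copies is uncertain.

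Ferritin heavy chain, Fth1 (ENSMUSG00000024661, chromosome 19, 9980598 to 9985098, plus strand), carries the ferroxidase site that oxidises iron on entry. It had 549, 534 and 546 CPM in the Circ-INSR siRNA libraries, against 601, 584 and 626 CPM in the control libraries. All Circ-INSR siRNA libraries were below all control libraries. The log2 fold change was -0.15 (SE 0.04; edgeR adjusted p = 0.00663), and -0.10 with the length and GC trend removed (edgeR adjusted p = 0.0185). Both ferritin chains carry the same kind of 5' UTR hairpin shown above. Their mRNAs moved in opposite directions, with the Ftl1 call lost under 7 of the 16 other settings. Levels of mRNA do not measure translation, the step that binding in a 5' UTR blocks.

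The ratio of Fth1 to Ftl1 counts within a library needs no scaling between libraries. It was 0.410, 0.413 and 0.397 in the Circ-INSR siRNA libraries and 0.482, 0.492 and 0.487 in the control libraries. The mean log2 ratio was -1.30 ± 0.03 after Circ-INSR siRNA and -1.04 ± 0.02 after control siRNA (SD, n = 3 each), a difference of -0.26. An exact two-sided permutation test gave p = 0.1, the smallest that 3 against 3 libraries allow. Ferritin mRNA as a share of all counts was 0.180% to 0.189% after Circ-INSR siRNA and 0.179% to 0.197% after control siRNA, for both chains together, and these ranges overlapped.

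Ncoa4 (ENSMUSG00000056234, chromosome 14, 32159865 to 32179855, plus strand), the receptor that takes ferritin to lysosomes, had 85.8, 88.7 and 87.3 CPM after Circ-INSR siRNA, against 76.3, 78.3 and 76.5 CPM after control siRNA. Its libraries were tightly grouped, and the groups were apart by several times their spread. The log2 fold change was 0.18 (SE 0.04; edgeR adjusted p = 0.00282). With the length and GC trend removed it was 0.12, still past the threshold (edgeR adjusted p = 0.00893).

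Tfrc, the transferrin receptor (ENSMUSG00000022797, chromosome 16, 32608920 to 32632794, plus strand), had 229, 240.5 and 240.1 CPM in the Circ-INSR siRNA libraries, against 195, 218 and 213 CPM in the control libraries. Control replicate 1 was the lowest library, and the groups did not overlap. The rise was 0.18 (SE 0.05; edgeR adjusted p = 0.00914), and 0.11 with the length and GC trend removed (edgeR adjusted p = 0.00638). The search found 4 hairpins in the Tfrc 3' UTR, shown above. Their letters give only their order along the mRNA in this search.

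The ratio of Tfrc to Fth1 counts compares the uptake receptor with the heavy storage chain. It was 0.416, 0.450 and 0.439 in the Circ-INSR siRNA libraries and 0.325, 0.374 and 0.341 in the control libraries. The mean log2 ratio was -1.20 ± 0.06 after Circ-INSR siRNA and -1.53 ± 0.10 after control siRNA (SD, n = 3 each), a difference of 0.33. The groups did not overlap, and the exact two-sided permutation p was again 0.1, the smallest possible. Ftl1, the storage chain with the higher counts, had a log2 fold change of 0.11, against 0.18 for Tfrc. The ratio of Tfrc to Ftl1 was not computed.

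**Figure D2:**
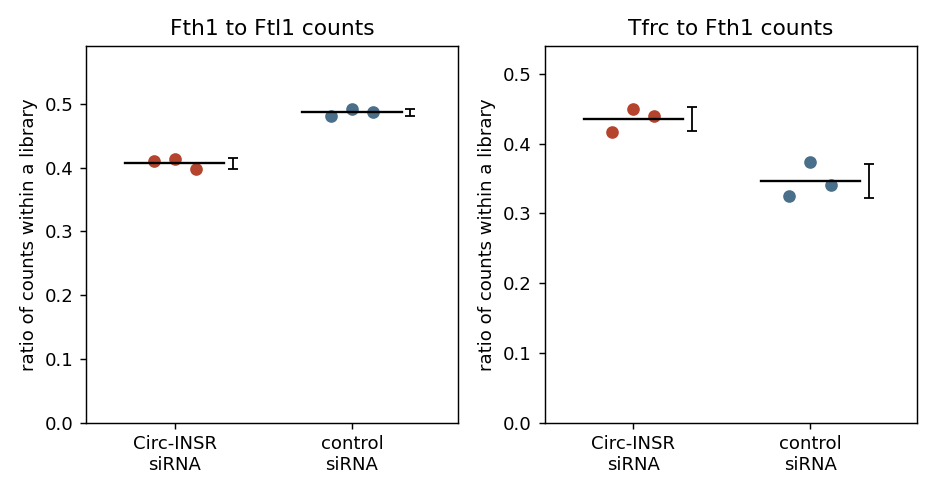
Ratio of counts within each library for Fth1 to Ftl1 (left) and Tfrc to Fth1 (right), with Circ-INSR siRNA left of control siRNA in each panel. Points are libraries, lines are means and bars 1 SD (n = 3 each), and Fth1 to Ftl1 is lower (0.397 to 0.413) and Tfrc to Fth1 higher (0.416 to 0.450) in Circ-INSR siRNA libraries than in control libraries.

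Steap3 (ENSMUSG00000026389, chromosome 1, 120190757 to 120272705, minus strand), the endosomal ferric reductase, had 41.4, 42.1 and 41.7 CPM after Circ-INSR siRNA, against 40.3, 38.2 and 37.4 CPM after control siRNA. The values of the groups were separate, but control replicate 1 lay close to the Circ-INSR siRNA libraries. The log2 fold change was 0.11 (SE 0.05; edgeR adjusted p = 0.0616), with an interval of 2 SE from 0.02 to 0.21, and did not pass the test. Without control replicate 1 it was 0.14 (edgeR adjusted p = 0.0247), with the length and GC trend removed 0.19 (edgeR adjusted p = 0.000666), and with total-count scaling 0.07 (edgeR adjusted p = 0.243).

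Slc11a2 (ENSMUSG00000023030, chromosome 15, 100387898 to 100425072, minus strand), the divalent metal transporter DMT1, had 48.0, 47.5 and 49.7 CPM after Circ-INSR siRNA, against 55.0, 56.6 and 52.5 CPM after control siRNA. Every Circ-INSR siRNA library was below every control library. The log2 fold change was -0.18 (SE 0.05; edgeR adjusted p = 0.00647). Of the 3 uptake genes, then, 1 rose, 1 fell and 1 was not called.

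Ferroportin, Slc40a1 (ENSMUSG00000025993, chromosome 1, 45908068 to 45926523, minus strand), is the known route of iron out of mammalian cells. It had 25.2, 29.1 and 28.8 CPM after Circ-INSR siRNA, against 19.0, 23.1 and 22.6 CPM after control siRNA. Replicate 1 was the lowest library of both groups, and the lowest Circ-INSR siRNA library was above the highest control library. The rise was 0.36 (SE 0.08; edgeR adjusted p = 0.00252), the widest error among the members. It had the lowest level of the 9 genes per length.

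Aco1, which encodes IRP1 (ENSMUSG00000028405, chromosome 4, 40143081 to 40198338, plus strand), had 151.9, 153.6 and 150.4 CPM in the Circ-INSR siRNA libraries, against 95.1, 89.0 and 83.9 CPM in the control libraries. No other member had groups so far apart relative to their spread. The log2 fold change was 0.77 (SE 0.05; edgeR adjusted p = 1.79e-07), and 15.1% of all genes tested had a larger absolute change. Under the 16 alternatives the rise was between 0.72 and 0.85.

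Ireb2, which encodes IRP2 (ENSMUSG00000032293, chromosome 9, 54863789 to 54912530, plus strand), had 113.7, 120.1 and 116.9 CPM after Circ-INSR siRNA, against 85.7, 93.2 and 92.3 CPM after control siRNA. The groups were separate by more than the range within either of them. The rise was 0.37 (SE 0.05; edgeR adjusted p = 3.87e-05), and 0.28 with the length and GC trend removed. Ireb2 and Slc40a1 were passed in absolute change by 40.5% and 41.6% of all genes, so both lay near the middle of the table. For the other 6 members that share was between 66.9% and 79.6%.

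**Figure D3:**
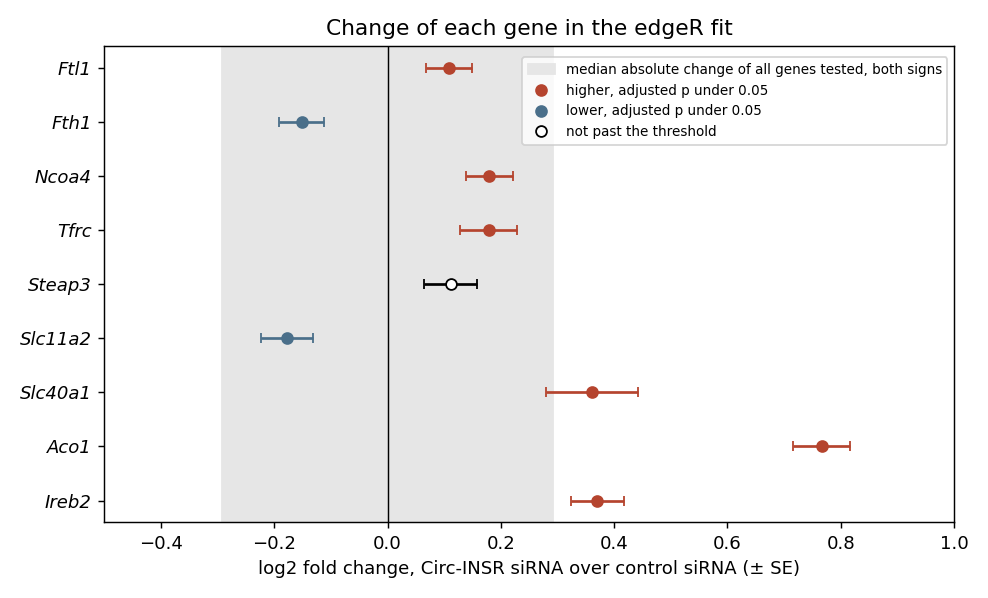
Log2 fold change of each gene, Circ-INSR siRNA over control siRNA, with SE bars, from storage genes at the top to the iron regulatory proteins at the bottom. The grey band marks the median absolute change of all genes tested (0.29), and Aco1, Ireb2 and Slc40a1 lie beyond it.

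Per kilobase of exonic sequence, the order of levels after Circ-INSR siRNA was Ftl1 (997 CPM per kb), Fth1 (157), Tfrc (38.2), Aco1 (33.8), Ireb2 (12.3), Ncoa4 (9.32), Slc11a2 (7.61), Steap3 (7.30) and Slc40a1 (3.08). After control siRNA it was Ftl1 (925 CPM per kb), Fth1 (174), Tfrc (33.8), Aco1 (19.9), Ireb2 (9.54), Slc11a2 (8.61), Ncoa4 (8.23), Steap3 (6.76) and Slc40a1 (2.40). Slc11a2 and Ncoa4 overlapped between control libraries, at 8.27 to 8.91 and 8.15 to 8.36 CPM per kb, so their order there is within the spread. The exonic length of Fth1, 3469 bases, includes long minor transcripts. Over the first listed transcript of each gene (929 bases for Fth1 and 968 for Ftl1), the levels after Circ-INSR siRNA were 1380.4 CPM per kb for Ftl1 and 585 for Fth1, and after control siRNA 1280.4 for Ftl1 and 649 for Fth1. On that length Ncoa4 stood above Ireb2, at 26.1 and 20.3 CPM per kb after Circ-INSR siRNA.

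The genes most like the 3 members with the largest changes were sought among 10382 others by the root mean square difference of log2 CPM, centred on each gene's mean over the 6 libraries. For Aco1 they were Fsd2, Usp10 and Git1, with differences of 0.025, 0.026 and 0.029 log2 units. For Ireb2 they were Extl2, Cul3 and Cdca5, at 0.0086, 0.016 and 0.017. For Slc40a1 they were Mospd1, Bckdhb and Dram2, at 0.036, 0.045 and 0.047. With 6 libraries in 2 groups this likeness mostly reflects the size of the group difference. Counting both directions, 15.1% of all genes tested had a larger absolute change than Aco1. That share was 40.5% for Ireb2 and 41.6% for Slc40a1.

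Beyond the members, 87 genes in 8 lists of iron handling were counted, of which 77 passed the filter on low counts. Of these 19 were called higher (24.7%) and 32 lower (41.6%), against 28.5% of all genes in each direction, with a median log2 fold change of -0.10. Because the lists were chosen with earlier results of these data known, these shares are a description and not a test. Among 9 genes of iron sensing and hepcidin control that were tested, 3 rose and 2 fell. Tfr2, the second transferrin receptor, known as an iron sensor of the liver, had 9.05 ± 0.292 CPM after Circ-INSR siRNA and 4.46 ± 0.586 CPM after control siRNA, a rise of 1.02 (SE 0.10). Hfe2, which encodes hemojuvelin and is expressed in muscle, had 13.4 ± 0.732 CPM after Circ-INSR siRNA and 7.92 ± 0.809 CPM after control siRNA, a rise of 0.76 (SE 0.08). Neo1, its partner neogenin, rose by 0.62 (SE 0.07). Fbxl5, the iron-sensing subunit of the ubiquitin ligase that degrades the protein of Ireb2, fell to 54.5 ± 0.400 CPM after Circ-INSR siRNA, against 65.0 ± 2.84 CPM after control siRNA. For these 4 genes edgeR gave an adjusted p from 3.81e-06 to 0.000557.

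Of 7 other genes of uptake and iron reduction that were tested, 1 rose and 2 fell. Slc39a14, a zinc and iron importer, had 68.6 ± 1.27 CPM after Circ-INSR siRNA and 85.7 ± 5.43 CPM after control siRNA, a log2 fold change of -0.32 (SE 0.05; edgeR adjusted p = 0.000226). Slc39a8, its relative, was higher by 1.02 (SE 0.19; edgeR adjusted p = 0.000732) at 2.04 ± 0.243 CPM after Circ-INSR siRNA and 1.0004 ± 0.262 CPM after control siRNA, and Steap1 fell by 0.16 (SE 0.06). Of 5 ferroxidase and iron chaperone genes 1 rose and 2 fell. Pcbp1 and Pcbp2, which encode chaperones that can hand iron to ferritin, both fell. Pcbp1 had 305 ± 8.28 CPM after Circ-INSR siRNA and 364 ± 9.59 CPM after control siRNA. Pcbp2 had 373 ± 7.33 CPM after Circ-INSR siRNA and 467 ± 11.5 CPM after control siRNA. Their family member Pcbp4 rose by 0.76 (SE 0.05; edgeR adjusted p = 1.03e-07).

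Genes of heme synthesis, transport and breakdown fell in 10 of 19 cases and rose in 5. Alad, the second enzyme of heme synthesis, had 93.1 ± 3.54 CPM after Circ-INSR siRNA and 145 ± 3.43 CPM after control siRNA, a log2 fold change of -0.64 (SE 0.05). Hmox1, the inducible heme oxygenase that frees iron from heme, fell by 1.28 (SE 0.05), and Blvra, which reduces the biliverdin it makes, by 1.05 (SE 0.08). Hmox2, the constitutive heme oxygenase, moved the other way, with 49.1 ± 1.53 CPM after Circ-INSR siRNA and 36.4 ± 1.74 CPM after control siRNA. For these 4 genes edgeR gave an adjusted p from 3.17e-09 to 2.00e-05.

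Of 19 genes of mitochondrial iron import and iron-sulfur assembly 8 fell and 5 rose. Fdxr, the ferredoxin reductase and a known p53 target, had 22.3 ± 1.34 CPM after Circ-INSR siRNA and 53.2 ± 1.28 CPM after control siRNA. The assembly factor gene Isca1 had 71.7 ± 1.66 CPM after Circ-INSR siRNA and 52.5 ± 0.887 CPM after control siRNA, a rise of 0.45 (SE 0.04). Nfu1, a carrier of finished clusters, fell by 0.41 (SE 0.05). For these 3 genes edgeR gave an adjusted p from 8.62e-09 to 2.36e-05. Of 11 genes of cytosolic iron-sulfur assembly 5 fell and 1 rose. Those that fell included Ciao2b and Narfl, at -0.64 (SE 0.04) and -0.35 (SE 0.05). The 1 that rose was Ciao1, at 0.20 (SE 0.05; edgeR adjusted p = 0.00692). Glrx3 and Bola2, which act as a pair, changed by -0.47 (SE 0.05) and -0.56 (SE 0.07).

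Of the 4 tested genes in the list of other mRNAs with a described iron-responsive element, 3 rose. The bulged form of the hairpin was found here in the 5' UTR of Epas1, which encodes HIF-2 alpha. For Cdc14a and Cdc42bpa the element was described in human, and neither form was found in the mouse transcripts. Epas1 was higher by 0.73 (SE 0.18; edgeR adjusted p = 0.00486) at a low level, 1.90 ± 0.125 CPM after Circ-INSR siRNA and 1.14 ± 0.275 CPM after control siRNA. Cdc14a rose by 0.53 (SE 0.11) and Cdc42bpa by 0.20 (SE 0.06; edgeR adjusted p = 0.0212). For Cdc42bpa the control libraries had 180.8, 181.3 and 151.2 CPM, the lowest being replicate 3, which stood apart above. The Circ-INSR siRNA libraries had 193.6 to 201.0 CPM.

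Of 3 tested secreted binders of iron or of siderophores, 2 fell and both were scarce. Ltf, which encodes lactoferrin, had 0.479 ± 0.203 CPM after Circ-INSR siRNA and 3.82 ± 0.307 CPM after control siRNA, and Lcn2, which binds bacterial siderophores, had 0.0949 ± 0.0490 CPM after Circ-INSR siRNA and 1.37 ± 0.200 CPM after control siRNA. Their log2 fold changes were -2.98 (SE 0.22) and -3.85 (SE 0.32), with edgeR adjusted p of 4.67e-07 and 1.05e-06.

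**Figure D4:**
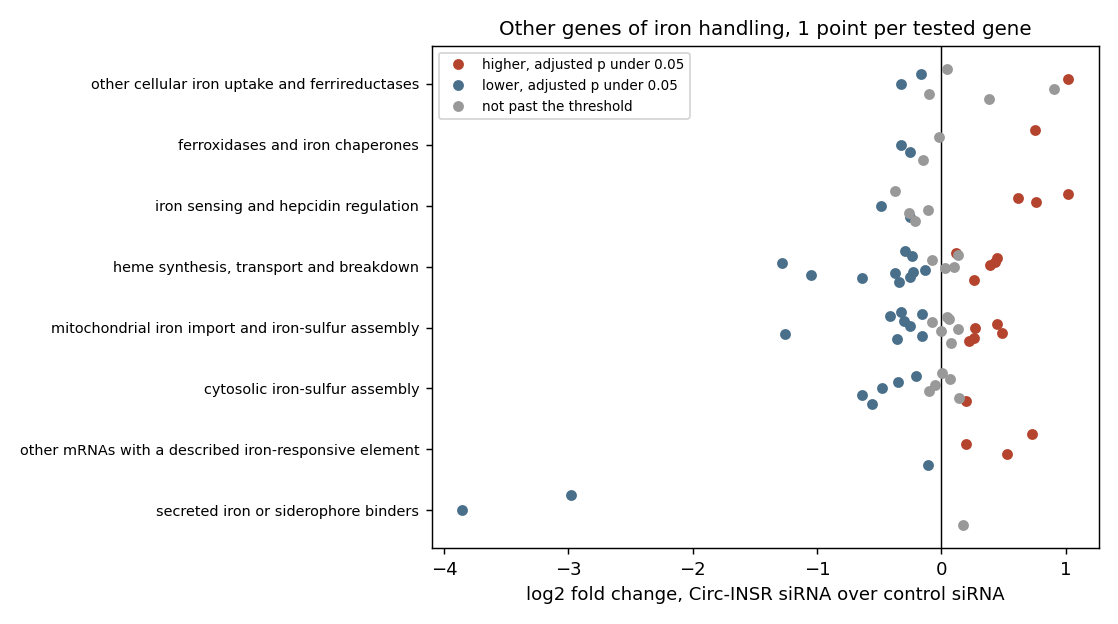
Log2 fold change, Circ-INSR siRNA over control siRNA, of the tested genes in the 8 lists of iron handling, 1 point per gene, coloured by the edgeR call. Points lie on both sides of 0 in all 8 lists, and the 2 called secreted binders, Lcn2 and Ltf, lie farthest left.

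The 9 members kept their direction under all 16 other settings of scaling, filter, test and library choice. Aco1, Ireb2, Slc40a1, Ncoa4, Tfrc, Fth1 and Slc11a2 also kept their calls, Ftl1 lost its call under 7 settings, and Steap3 gained one under 2.

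**Figure D5:**
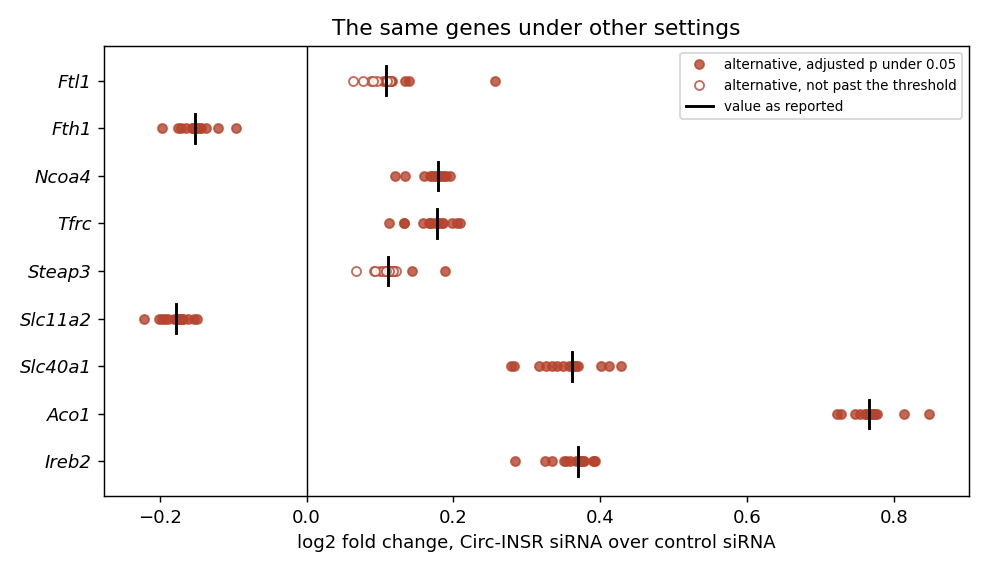
Log2 fold change of the 9 genes under 16 other settings (circles, filled where the adjusted p was under 0.05) beside the value as reported (black bar). No circle crosses 0, and open circles occur only for Ftl1 (7 settings) and Steap3 (14 settings).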

How the data were processed

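Each library has 1 deposited file of raw counts by Ensembl gene ID. The submitters' processing notes name build mm10 and, among other tools, STAR 2.5.0c and featureCounts 1.6.4, without their settings. Libraries were directional, per the labels' protocols, and the strand setting used in counting is not given in the sources used here. In the files, counts of 2 outnumbered counts of 1 in every library, the pattern of counting both mates of a pair, so a run with halved counts was added to the alternatives. Symbols, positions and transcripts came from GENCODE M21, where 36308 IDs (95.33%) were found.

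Counts were filtered with filterByExpr (minimum count 10, minimum total 15), scaled by TMM (factors 0.983 to 1.03) and tested with edgeR 4.0.16 in R 4.3.3, by the robust quasi-likelihood F-test with group as the only term. P-values were adjusted over all 16666 genes tested. SE was obtained as the log2 fold change over the root of F. The common biological coefficient of variation was 6.09%. The steps were tested on simulated data. CPM use TMM-scaled library sizes. Alternatives were 3 other scalings, 2 other filters, each of 6 libraries left out, limma-voom (limma 3.58.1), DESeq2 1.42.0, a block for the replicate number, halved counts, and offsets that take out each library's trend with exonic length and the GC content of the longest transcript. The members and lists were chosen with earlier results of these data known. All members were named, and from each list up to 4 called genes with the smallest adjusted p. Ciao1 was named besides, as the only gene of its list that rose. Some genes that this rule takes are not reported here. Likeness was computed on log2(CPM + 0.25) for genes whose average log2 CPM was 3 or more.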

Additional observations from a re-analysis of the deposited data

How the results depend on the processing

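Over 16 alternatives for each of the 9 members, no direction changed and 135 of 144 results stayed on the same side of the threshold. The exceptions were 7 for Ftl1, which lost its call, and 2 for Steap3, which gained one. The number of members called lower was 2 throughout, and the number called higher was 5 to 7. Other iron genes called higher numbered 17 to 24 and called lower 27 to 36. The share of all genes called higher moved with scaling: with total counts 4130 were higher and 5326 lower, and with the length and GC trend removed 5567 were higher and 4625 lower. The log2 ratio of Fth1 to Ftl1 differed by between -0.27 and -0.24, and that of Tfrc to Fth1 by between 0.29 and 0.39. Why Ftl1 and Steap3 changed their calls was not tested.

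With the replicate number as a block, 6 members were called higher and 2 lower, and 21 other iron genes were higher and 33 lower, with differences of -0.26 and 0.33 for the ratios. Same-numbered libraries correlated at 0.024, 0.074 and 0.036 in their deviations from the group means, each the highest for its library. Correlations this small do not show a pairing, and the labels give none.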
